A study of Rattus norvegicus with 4 samples.

Results

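The polyamine genes described here are Odc1, Amd1, Srm, Sms, Sat1, Smox, Oaz1, Oaz2 and Azin1, which make polyamines, break them down or set the amount of the first enzyme of the pathway. Their probe sets, the groups of short probes that each report on 1 transcript, were all those to which the platform annotation gives exactly 1 symbol, that symbol being among these 9. This gave 13 of the 31099 probe sets on the array, and 1 further probe set that carries Smox together with another symbol was left out. Azin1 had 3 probe sets, Sms and Oaz2 had 2 each, and the other genes had 1 each. The tissue was the ventral prostate lobe of F344 rats, a laboratory strain, all of them male and 6 weeks old. The 4 rats of the PhIP group received 300 mg/kg of PhIP, a heterocyclic amine that forms when meat is cooked and that is carcinogenic in the rat prostate. The 4 control rats received none, and all were killed after 2 days. RNA from 2 rats of a group shared an array, so that there were 2 PhIP arrays and 2 control arrays, and each value below belongs to a pool of 2 rats. The sources used here do not give the route of dosing or a vehicle.

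Polyamines are small positively charged molecules that bind nucleic acids and are needed for growth and translation. Ornithine decarboxylase makes putrescine from ornithine, and spermidine synthase and spermine synthase then add aminopropyl groups that come from decarboxylated S-adenosylmethionine. The prostate makes and secretes very large amounts of polyamines, and in rodents its polyamine synthesis depends on androgen. Breakdown can start with acetylation, after which the products are oxidised or exported. Spermine can also be turned back to spermidine directly by an oxidase. Antizyme, whose translation needs a ribosomal frameshift that polyamines favour, binds ornithine decarboxylase and sends it to the proteasome, and antizyme inhibitor competes for antizyme.

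Values are MAS5 signals, the authors' linear intensity for each probe set, scaled by them to the same trimmed mean on every array. The median signal was 23.1 to 23.2 on the PhIP arrays and 25.5 to 27.4 on the control arrays. Control 2 stood apart. Its log2 values correlated at r = 0.972 with those of control 1, whereas the PhIP arrays correlated with control 1 at 0.980 and 0.979, and its ratio of 3′ to 5′ actin signal, a sign of RNA integrity, was 5.71, against 3.49 to 4.18 on the other arrays. The 18 probe sets for transcripts added in fixed amounts at hybridization were all lower on the PhIP arrays, on average by −0.23 on the log2 scale. Luminal epithelial markers were present on every array, and the spermine-binding protein transcript Sbp, a ventral prostate product, had signals from 6436.1 to 8219.2.

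None of the 9 genes passed the test of PhIP against control. The differences between the groups were small, and with the authors' scaling they ran in opposite directions within the pathway. The transcript of the first enzyme of synthesis (Odc1) and that of the acetylating enzyme of breakdown (Sat1) had higher signals in both PhIP pools. The transcripts of the spermidine and spermine synthases (Srm and Sms) and of S-adenosylmethionine decarboxylase (Amd1) had lower ones. After scaling to the transcripts added at hybridization, however, the log2 changes of Srm, Sms and Amd1 were −0.0064, 0.0092 and 0.089. After centring the arrays on their medians these changes were −0.10, −0.085 and −0.0073. With quantile normalization or cyclic loess they were lower than with the authors' scaling. The test was limma's moderated test on log2(signal + 10), a scale that understates the change of dim probe sets, over the 18625 probe sets whose mean lay above the 40th percentile. It tested 12 of the 13 probe sets of these genes, and 0 had an adjusted p under 0.05, against 0.0268% of all tested probe sets. At an unadjusted p under 0.05 there were 4 of 12 (33.3%), those of Odc1 and Sat1 on the higher side and those of Srm and Sms on the lower side, against 13.0% of all tested probe sets. By direction that is 2 of 12 higher, against 5.36% of all, and 2 of 12 lower, against 7.61%. The PhIP arrays lay entirely above or entirely below the control arrays in 8 of 12 (66.7%), against 45.8% of all tested probe sets. They lay above in 4 of 12, against 19.8% of all, and below in 4 of 12, against 26.0%. With the brightest probe set of each gene, the median log2 change of the 9 genes was −0.12, against −0.026 for all 10507 genes so represented. This −0.12 is the value of Smox, a dim gene, and of the 9 changes 4 were positive and 5 negative. The median size of the change regardless of sign was 0.14, against 0.17. The count at an unadjusted p under 0.05 was 0 without PhIP 1, 0 without PhIP 2 and 0 with eBayes without the intensity trend, and it was 6 without control 2. Without control 1 it was 7, and 4 probe sets then passed the adjusted threshold, but so did 12.5% of all tested probe sets, and 28.3% had an unadjusted p under 0.05. Without PhIP 1 or PhIP 2, 0 of all tested probe sets passed the adjusted threshold, so each lower adjusted p given below for a fit without a control array was lost in both of those fits.

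**Figure D1:**
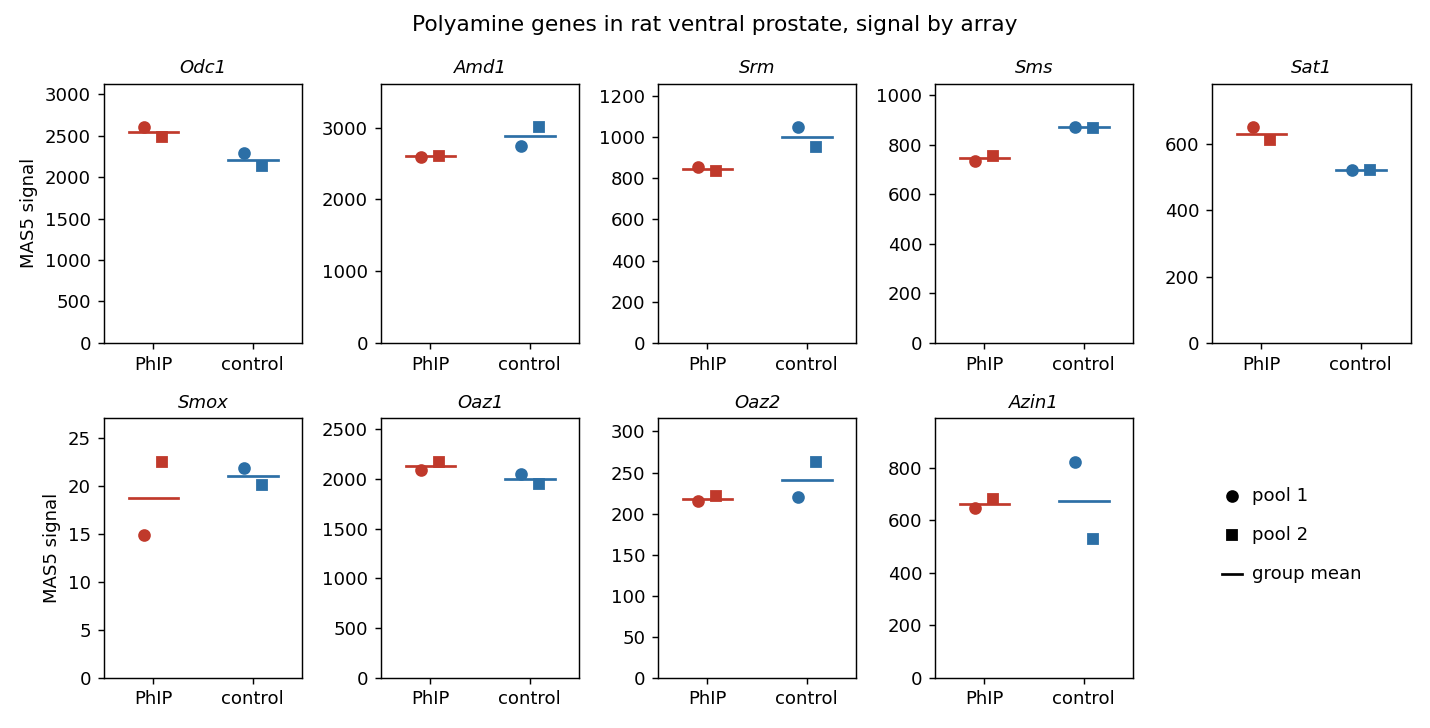
MAS5 signal (vertical axis, linear, from 0) of the brightest probe set of each of the 9 genes on the PhIP arrays (red, left) and the control arrays (blue, right); circles are pool 1, squares pool 2 and bars group means. Odc1, Sat1 and Oaz1 lie higher on both PhIP arrays than on both control arrays, Amd1, Srm and Sms lie lower, and Smox, Oaz2 and Azin1 overlap.

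The regions just upstream of the 4 genes with an unadjusted p under 0.05 are shown because these genes carry the opposite differences. Each is the 250 bases before the annotated start, read 5′ to 3′ on the gene's strand from RefSeq on build GRCr8. Odc1 lies at chr6:46058415-46058664, Sat1 at chrX:44007839-44008088, Srm at chr5:164308752-164309001 and Sms at chrX:41331753-41332002, all on the plus strand. Capitals mark matches to an E-box (CACGTG on either strand), to the TATA motif (TATAA, or TTATA on the other strand) and to the GC box (GGGCGG, or CCGCCC on the other strand).
Odc1: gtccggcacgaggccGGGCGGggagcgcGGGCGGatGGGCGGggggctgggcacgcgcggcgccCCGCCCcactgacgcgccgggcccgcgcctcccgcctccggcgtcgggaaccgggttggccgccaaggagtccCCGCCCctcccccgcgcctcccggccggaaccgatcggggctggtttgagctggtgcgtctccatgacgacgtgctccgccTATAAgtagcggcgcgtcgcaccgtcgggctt
Sat1: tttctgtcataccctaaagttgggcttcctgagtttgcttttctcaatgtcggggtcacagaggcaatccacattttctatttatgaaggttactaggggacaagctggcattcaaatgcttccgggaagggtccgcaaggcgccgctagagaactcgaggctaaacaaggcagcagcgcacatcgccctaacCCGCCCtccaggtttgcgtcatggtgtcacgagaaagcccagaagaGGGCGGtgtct
Srm: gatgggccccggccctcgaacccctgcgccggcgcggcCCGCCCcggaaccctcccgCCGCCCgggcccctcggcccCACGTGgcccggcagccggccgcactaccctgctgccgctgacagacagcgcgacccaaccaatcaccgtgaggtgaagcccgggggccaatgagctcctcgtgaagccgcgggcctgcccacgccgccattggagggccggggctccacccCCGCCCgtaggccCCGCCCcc
Sms: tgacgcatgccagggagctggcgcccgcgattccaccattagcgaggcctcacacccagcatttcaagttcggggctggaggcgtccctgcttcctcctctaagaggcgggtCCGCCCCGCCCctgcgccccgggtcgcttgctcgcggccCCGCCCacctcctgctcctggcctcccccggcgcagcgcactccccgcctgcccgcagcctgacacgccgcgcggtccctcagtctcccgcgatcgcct

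The promoter table held 8 of the 9 genes, all but Azin1. A GC box occurred in 7 of these 8 windows, against 30.5% of the 33469 windows of the same length in the table. Odc1 had 5 matches and a TATA motif 32 bases before the start, where no other motif overlapped it. The Srm window held 4 GC boxes and an E-box, the Sms window 3 GC boxes, of which a pair shared 1 base, and the Sat1 window 2. A TATA motif was found in Odc1, Amd1 and Oaz1, against 24.0% of all windows, and an E-box in Srm and Oaz1, against 5.59%. The Odc1 and Srm windows were rich in G and C, at 78.0% and 78.4%, and the Sat1 window, at 52.8%, was close to the median of all windows, 51.2%. The pair with higher signals in PhIP (Odc1 and Sat1) therefore had no motif in common that Srm and Sms lacked. These matches describe letters and say nothing of binding.

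Odc1, the rate-limiting decarboxylase, had signals of 2605.8 and 2485.1 on the PhIP arrays and 2289.5 and 2127.7 on the control arrays. Both PhIP values lay above both control values. The PhIP mean was 2545 ± 85.3 and the control mean 2209 ± 114 (SD, n = 2 each), a log2 change of 0.20 ± 0.074 (SE; 95% interval 0.033 to 0.38, limma adjusted p = 0.317). Changes of at least this size were seen in 44.1% of all tested probe sets. The adjusted p was 0.0287 without control 1, where the log2 change was 0.26, and 0.290 without control 2, where it was 0.15. It was 0.934 without PhIP 1 and 0.921 without PhIP 2. In whole tissue, fewer cells of a type and less RNA per cell cannot be told apart, which applies to every difference given here.

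Amd1 encodes the enzyme that supplies the aminopropyl donor for both synthases. Its signals were 2597.3 and 2603.1 in PhIP and 2742.7 and 3010.6 in control. The PhIP pools were nearly equal and lay below both control pools, which differed more. The log2 change was −0.14 ± 0.073 (95% interval −0.31 to 0.025, adjusted p = 0.449), and its size rested on control 2, since it was −0.077 without that array and −0.21 (adjusted p = 0.0495) without control 1.

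Srm, spermidine synthase, had signals of 856.5 and 836 in PhIP, against 1049.7 and 951.3 in control. The groups did not overlap, and the PhIP mean was 0.846 of the control mean. Its log2 change was −0.24 ± 0.091 (95% interval −0.45 to −0.025, adjusted p = 0.344), with −0.17 without control 1 and −0.31 without control 2.

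Sms, spermine synthase, was read by a pair of probe sets that ran the same way. The brighter had 737 and 754.9 in PhIP and 873.1 and 869.4 in control. The PhIP pools differed by 0.034 on the log2 scale and the control pools by 0.0061, both far less than the difference between the groups, −0.22 ± 0.087 (adjusted p = 0.348). The other probe set had 299.8 and 315.5 in PhIP and 391.3 and 336.2 in control, again with no overlap, and a log2 change of −0.23 ± 0.12 (adjusted p = 0.469). Its control pools lay further apart, by 0.21.

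Sat1, spermidine/spermine N-acetyltransferase, starts the breakdown of polyamines by acetylation and is known to be induced by many stresses. It had 651.6 and 610.6 in PhIP, against 520.6 and 521 in control. The control pools were almost identical, and both PhIP pools lay above them, with a PhIP mean 1.21 times the control mean. The log2 change was 0.27 ± 0.097 (95% interval 0.047 to 0.50, adjusted p = 0.311), the lowest adjusted p among these probe sets, and it was 0.27 without control 1 and 0.27 without control 2. A change of at least this size was seen in 32.0% of all tested probe sets.

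Smox, the oxidase that turns spermine back to spermidine, was dim and uninformative. Its signals were 14.9 and 22.5 in PhIP and 21.8 and 20.1 in control, and the groups overlapped. The PhIP pools differed from each other by 0.38 on the log2 scale, more than the groups did (−0.12 ± 0.25, adjusted p = 0.854). The interval of −0.70 to 0.46 is too wide to show whether this transcript differed.

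Oaz1, the most widely expressed antizyme, had 2089.2 and 2173 in PhIP and 2050.9 and 1948 in control. There was no overlap, but the gap between the nearest pools of the 2 groups was smaller than the spread within either group. The log2 change was 0.092 ± 0.073 (95% interval −0.077 to 0.26, adjusted p = 0.618).

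Oaz2, a second antizyme, gave a different sign in each of its probe sets. The brighter had 214.7 and 221.9 in PhIP and 219.6 and 263.3 in control, which overlapped (−0.13 ± 0.13, adjusted p = 0.691). The dimmer had 94.9 and 89.8 in PhIP and 78.5 and 49.3 in control, with the PhIP pools above, a log2 change of 0.50 ± 0.22 (adjusted p = 0.387). This was the largest change among the 12 tested probe sets, and it depended on control 2, which lay 0.58 below control 1 on the log2 scale. The change was 0.21 without control 2 and 0.79 (adjusted p = 0.0151) without control 1. No direction can therefore be given for this gene.

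Azin1, the antizyme inhibitor and a relative of ornithine decarboxylase without enzyme activity, showed the largest spread between control pools among the brightest probe sets. Its brightest probe set had 645.7 and 679.5 in PhIP and 822.9 and 526.3 in control, so that both PhIP pools lay between the control pools. The log2 change was 0.0087 ± 0.19 (95% interval −0.42 to 0.44, adjusted p = 0.988), against a gap of 0.64 between the control pools. It was 0.33 (adjusted p = 0.0347) without control 1 and −0.31 (adjusted p = 0.0918) without control 2. The next probe set had 617.9 and 523.8 in PhIP and 595.2 and 484.6 in control, also overlapping (0.082 ± 0.13, adjusted p = 0.816). The third, with 6.4 and 1.1 in PhIP and 1.9 and 9.7 in control, was too dim to be tested.

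**Figure D2:**
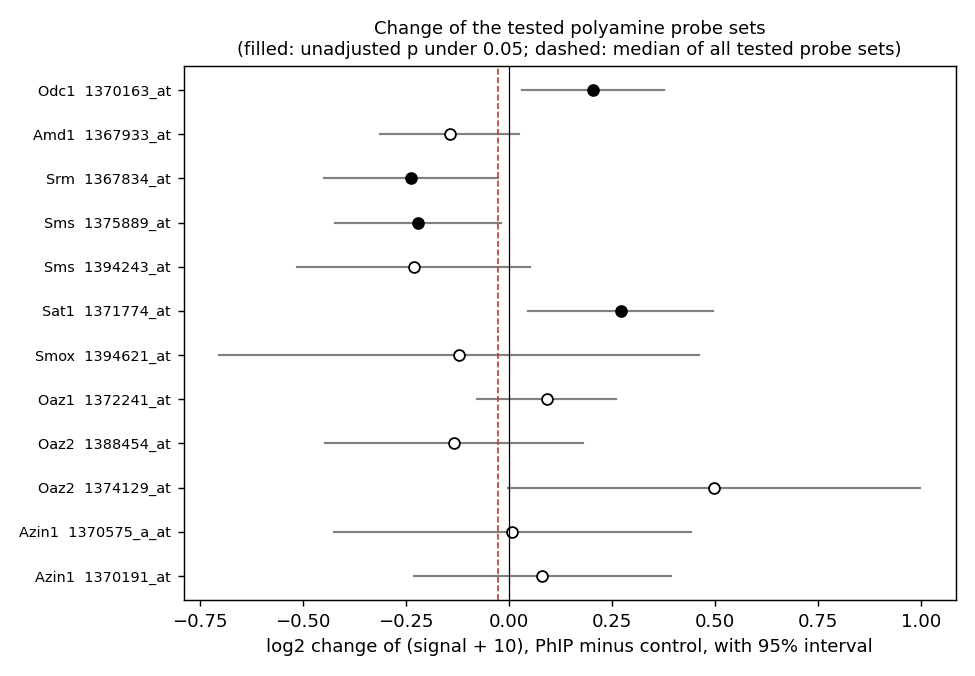
Log2 change of signal + 10, PhIP minus control (horizontal axis), with its 95% interval from limma for each of the 12 tested probe sets; filled points have an unadjusted p under 0.05 and the dashed line is the median of all tested probe sets, −0.025. Odc1 and Sat1 lie to the right of 0 and Srm and Sms to the left. The dimmer probe set of Oaz2 has the highest value with an interval from −0.0029 to 1.00. The intervals of Amd1, the dimmer Sms (−0.51 to 0.051), Smox, Oaz1, the brighter Oaz2 and Azin1 also include 0.

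The scaling of the arrays bears on every direction given above, because the differences were small. The median log2 change of all tested probe sets was −0.025 with the authors' scaling, 0.18 when arrays were scaled to the hybridization controls and 0.11 when they were centred on their medians. Odc1 and Sat1 had positive changes under all 5 scalings, from 0.16 to 0.44 for Odc1 and from 0.24 to 0.50 for Sat1. Srm was negative under all 5 but stood at −0.0064 after scaling to the hybridization controls, and that scaling turned Sms to 0.0092 and Amd1 to 0.089. Median centring also made these changes smaller, with Srm at −0.10, Sms at −0.085 and Amd1 at −0.0073. Quantile normalization and cyclic loess gave lower values than the authors' scaling for each of them. At an unadjusted p under 0.05, both median centring and the hybridization controls gave 4 probe sets that were higher (Odc1, Sat1, Oaz1 and the dimmer of Oaz2) and 0 that were lower, against 2 and 2 with the authors' scaling. Of all tested probe sets, 13.5% were then higher and 3.46% lower with median centring, and 19.8% higher and 2.42% lower with the hybridization controls. Relative to the median of all probe sets the order of these 5 genes was the same under each scaling. Part of this is arithmetic. Median centring shifts a whole array by a single amount, so it returns the values of the authors' scaling. The hybridization controls also give a single factor per array and can differ only through the added constant. Only quantile normalization and cyclic loess could otherwise have changed the order. Relative to that median, Sat1 ran from 0.23 to 0.32 and Odc1 from 0.15 to 0.26. Amd1 ran from −0.20 to −0.092, Sms from −0.26 to −0.17 and Srm from −0.28 to −0.19.

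**Figure D3:**
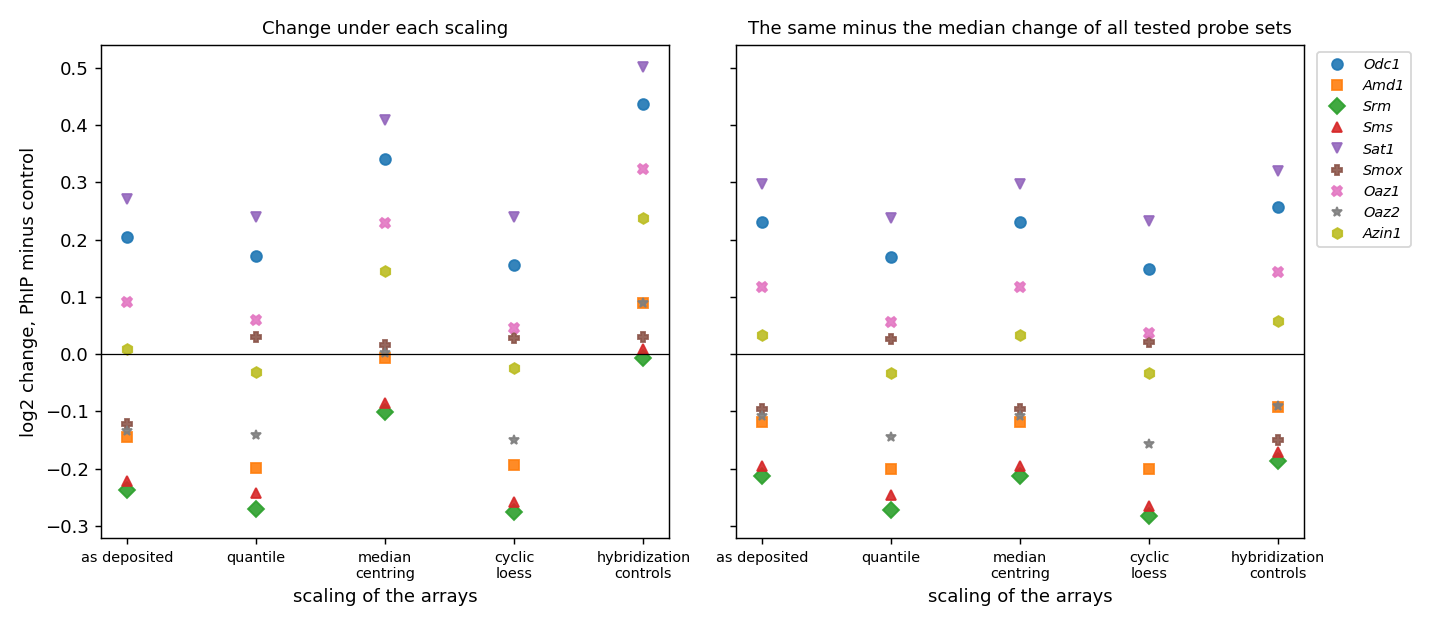
Log2 change of each gene's brightest probe set, PhIP minus control (vertical axis), under the authors' scaling and 4 others (horizontal axis), as fitted (left panel) and after subtracting the median change of all tested probe sets (right panel). Sat1 and Odc1 are the highest pair and Srm and Sms the lowest pair in every column of the right panel. In that panel median centring repeats the values of the authors' scaling by arithmetic.

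Ratios between genes on the same array do not depend on a single factor that scales the whole array, apart from the small effect of the added constant. Quantile normalization and cyclic loess use no such single factor and can alter these ratios. The following pairs were chosen after the values were seen and are a description with no test. With the mean of the control arrays set to 0, the log2 ratio of Odc1 to Srm was 0.46 and 0.43 on the PhIP arrays and −0.018 and 0.018 on the control arrays. The ratio of Odc1 to Sms was 0.48 and 0.37 in PhIP and 0.050 and −0.050 in control. That of Sat1 to Sms was 0.56 and 0.43 in PhIP, against −0.0036 and 0.0036 in control, and that of Sat1 to Srm was 0.54 and 0.48 in PhIP, against −0.071 and 0.071 in control. In these 4 ratios the PhIP pools lay above the control pools by more than the gap within either group. Odc1 to Amd1 was the least separate, with 0.38 and 0.31 in PhIP and 0.12 and −0.12 in control. With 2 arrays in each group, an exact permutation test of any of these ratios could not go below p = 0.333.

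**Figure D4:**
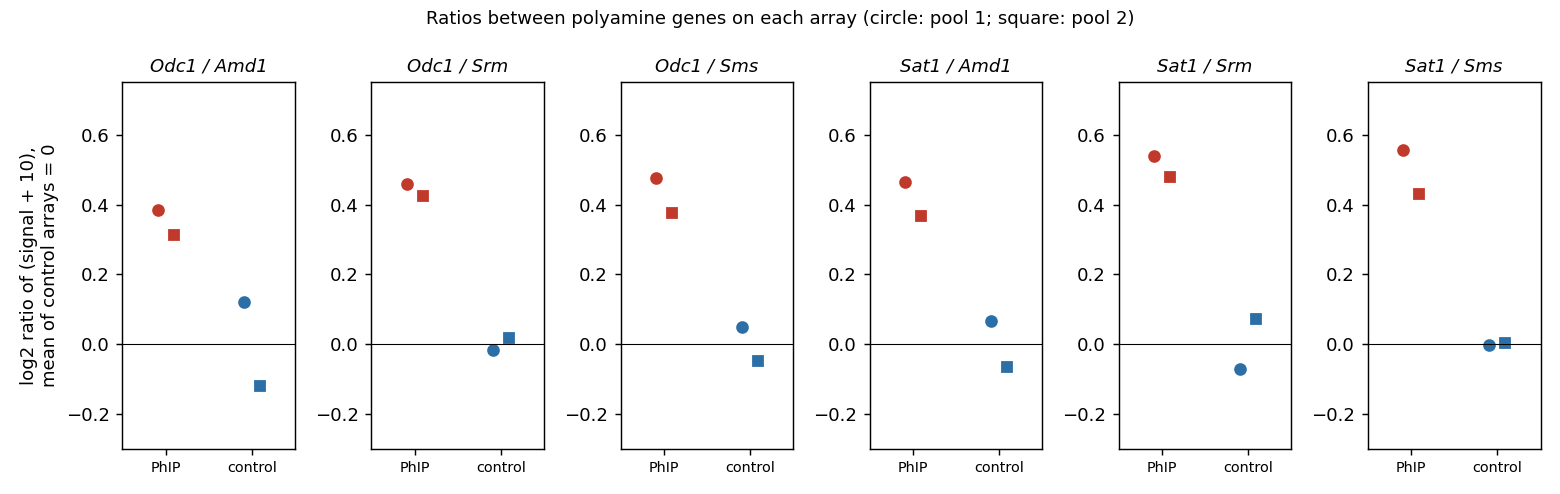
Log2 ratio of signal + 10 between 2 genes on the same array, with the mean of the control arrays set to 0 (vertical axis), on the PhIP arrays (red, left) and the control arrays (blue, right); circles are pool 1 and squares pool 2. In all 6 ratios both PhIP arrays lie above both control arrays, by the least for Odc1 over Amd1.

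Other genes of the pathway included larger changes than those of the 9 genes, but none passed the adjusted test. Of 57 genes in 7 lists around polyamine metabolism, 51 had a probe set of their own and 44 were tested by their brightest one. At an adjusted p under 0.05 there were 0 of 44, against 0.00952% of the 10507 genes tested. At an unadjusted p under 0.05 there were 7 (15.9%), 3 higher and 4 lower, against 14.6% of genes, and the groups did not overlap in 21 (47.7%), against 48.5%. These shares are close to the background. Their median log2 change was −0.048.

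In the list of genes that supply or use ornithine, the substrate of Odc1, 2 of 10 tested had an unadjusted p under 0.05, both lower in PhIP, against 14.6% of all genes in either direction. Negative values were found in 8 of the 10, against 54.0% of all genes, and the median was −0.21, against −0.026. Among the 8, Arg1 (−0.0061 ± 0.32) and Slc7a2 (−0.048 ± 0.27) were far smaller than their error. Slc25a15 stood at −0.24 ± 0.19 by its brightest probe set, with overlapping groups. Its other tested probe sets stood at 0.19, with both PhIP pools above, −0.011 and 0.011. Oat (−0.30 ± 0.20) also overlapped, with 142 and 138.1 in PhIP and 215.1 and 141.7 in control. The groups did not overlap in 4 of the 10, against 48.5% of all genes. Aldh18a1, the synthase that takes glutamate towards ornithine and proline, had the largest statistic of the 44. Its signals were 92.7 and 108.2 in PhIP, against 167.2 and 181.2 in control, a log2 change of −0.74 ± 0.15 (adjusted p = 0.115). The adjusted p was 0.716 without PhIP 1, 0.732 without PhIP 2, 0.0071 without control 1 and 0.0421 without control 2. Arg2, the mitochondrial arginase that makes ornithine from arginine, had 37 and 31.6 in PhIP and 62.1 and 52.4 in control (−0.60 ± 0.19, adjusted p = 0.277). Both genes had lower values in both PhIP pools than in either control pool, opposite in sign to Odc1.

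The best-known use of spermidine in the cell is hypusine, a modified lysine that activates the translation factor eIF5A. By the brightest probe set, the groups did not overlap for 4 of 4 genes of this step, against 48.5% of all genes, and the signs of the 4 differed. Dhps, which transfers the aminobutyl group of spermidine, had 192.9 and 164.4 in PhIP and 118 and 140.4 in control (0.44 ± 0.15, adjusted p = 0.306). Dohh, which completes the modification, had 177.2 and 175.8 in PhIP and 200.7 and 277.7 in control (−0.40 ± 0.17, adjusted p = 0.373), and this rested on control 2, with −0.18 without it and −0.63 (adjusted p = 0.0069) without control 1. Eif5a itself had 2521.1 and 2365.4 in PhIP and 2153.5 and 2182.1 in control (0.17 ± 0.071, adjusted p = 0.371). Its dim relative Eif5a2 stood at 0.12 ± 0.24 (adjusted p = 0.842), with signals of 19.6 and 19.9 in PhIP and 15.8 and 18.9 in control. A second Eif5a2 probe set, too dim to be tested, had the opposite sign (−0.37). Its groups overlapped, with 11.6 and 5.9 in PhIP and 17.2 and 11 in control.

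Of the genes that handle polyamines in prostatic secretion, Sbp had 8219.2 and 8045.3 in PhIP and 7243.7 and 6436.1 in control. Both PhIP pools were higher, with a log2 change of 0.25 ± 0.067 (adjusted p = 0.206), 0.34 (adjusted p = 0.0024) without control 1 and 0.17 (adjusted p = 0.141) without control 2. The adjusted p was 0.844 without PhIP 1 and 0.833 without PhIP 2. Tgm4, the prostatic transglutaminase, which in rat is known mainly from the coagulating gland and dorsal prostate, was dim, with 12.9 and 26.5 in PhIP and 25.4 and 48.8 in control (−0.66 ± 0.33, adjusted p = 0.446). Its log2 change was −0.32 without PhIP 1, −0.99 without PhIP 2, −1.02 without control 1 and −0.29 without control 2.

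Among 11 tested genes of the methionine cycle, 1 had an unadjusted p under 0.05, a share below the 14.6% of all genes. It was Mat2a, which makes the S-adenosylmethionine that Amd1 uses, with 4855.8 and 4512 in PhIP and 5028.8 and 5530.9 in control (−0.17 ± 0.071, adjusted p = 0.369). The change was −0.24 without control 1 and 0.061 after scaling to the hybridization controls. A second probe set had the opposite sign (0.70 ± 0.42). Its groups overlapped, with 939.5 and 861.6 in PhIP and 969.6 and 308.5 in control. Agmat, the agmatinase gene, had 14.4 and 21.1 in PhIP and 25.9 and 39.1 in control (−0.61 ± 0.26, adjusted p = 0.385), and its log2 change ranged from −0.83 without control 1 to −0.38 without control 2. In the remaining lists, other enzymes, transport and regulators of Odc1, 0 of 6, 0 of 6 and 0 of 5 tested genes had an unadjusted p under 0.05, against the same 14.6%. Myc, a known activator of Odc1 transcription, stood at −0.11 ± 0.16 (adjusted p = 0.794), with 195.6 and 160.4 in PhIP and 213.2 and 172.5 in control.

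**Figure D5:**
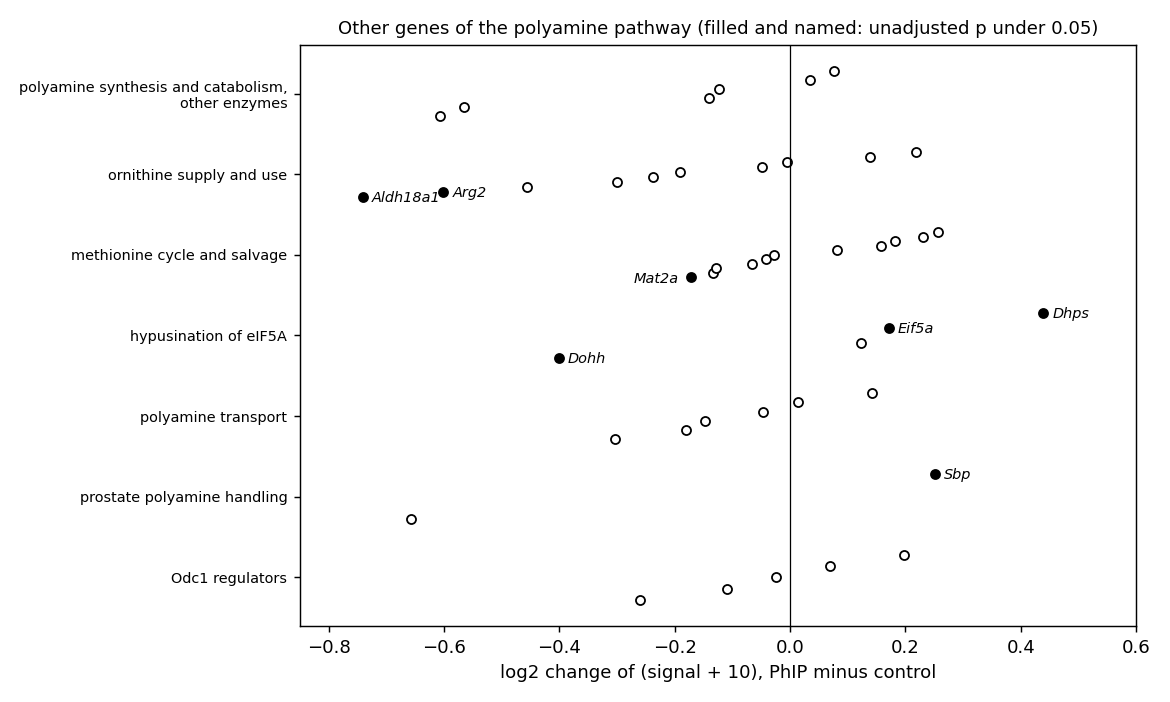
Log2 change of signal + 10, PhIP minus control (horizontal axis), of the 44 tested genes in 7 lists around polyamine metabolism (vertical axis); each point is 1 gene by its brightest probe set, and filled, named points have an unadjusted p under 0.05. Dhps, Sbp and Eif5a lie to the right of 0 and Aldh18a1, Arg2, Dohh and Mat2a to the left.

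Markers of the cell types in the lobe moved with the groups. The summed signal of 8 of 9 luminal epithelial markers was 10087.4 to 10134.6 in PhIP and 8702 to 8711.1 in control, with a median log2 change of 0.23. That of 8 of 8 smooth muscle markers was 4070.6 to 4133.5 in PhIP and 6788.2 to 6815.2 in control (median −0.81), and that of 7 of 7 fibroblast markers 7062.9 to 7123.2 in PhIP and 9275.5 to 11839.4 in control (median −0.56). The 7 of 7 markers of proliferating cells summed to 2243.8 to 2675.3 in PhIP and 1226.6 to 1445.7 in control (median 0.76). The sum for 5 of 6 leukocyte markers was 6576.3 to 6597.3 in PhIP and 5203.8 to 5308.9 in control (median 0.26). Marker sums were lower in PhIP for skeletal muscle (5 of 6 markers, 416.4 to 495.9 in PhIP and 903.9 to 1437.5 in control), adipocytes (5 of 5, 80.8 to 148.9 in PhIP and 193.9 to 307.8 in control) and endothelium (4 of 5, 123.8 to 132.3 in PhIP and 194.6 to 208.8 in control). No measured marker was at 0 on any array, but Cd3e (leukocyte), Cidec (adipocyte) and Tnni2 (skeletal muscle) had lowest signals of 0.4, 1 and 2.9. The median log2 changes were −1.15 for skeletal muscle, −0.88 for adipocytes and −0.51 for endothelium. All medians cover tested markers only, which were 4 for leukocytes and 3 for adipocytes. The changes of Odc1 (0.20) and Sat1 (0.27) were close in size to both the luminal (0.23) and the leukocyte (0.26) medians. Those of Srm, Sms and Amd1 had the sign of the smooth muscle, fibroblast, skeletal muscle, adipocyte and endothelium medians, but were smaller than these. The part of these cell types in the polyamine values was not tested.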

How the data were processed

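Gene expression was measured on Affymetrix arrays in 4 pools of rat ventral prostate RNA. The deposited values are MAS5 intensity signals on a linear scale, per the submitters' processing notes, which give no version. The sources used here give neither a scaling target nor detection calls. In the values, the mean after trimming 2% at each end was 100.04 on every array. With 4 arrays and no signals over background used here, the precision is limited.

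Names came from the platform annotation (20832 with 1 symbol, 436 with several, 9831 with none), and every symbol of the 9 genes was found by Entrez identifier in the RefSeq table of GRCr8. The 57 manufacturer's controls were left out. Signals were analysed as log2(signal + 10) with limma 3.58.1 in R 4.3.3 (lmFit, eBayes with intensity trend, two-sided, Benjamini-Hochberg over 18625 probe sets), on 2 residual and 5.67 prior degrees of freedom. The steps were tested on simulated data. A gene was represented by its brightest probe set. Arrays are replicates only as pools of rats, so p-values rest on the spread between pools and not between rats. With 5.67 prior against 2 residual degrees of freedom, that spread is largely shared across probe sets of like intensity. It is not the spread of each probe set alone. An exact permutation test of 2 against 2 cannot go below p = 0.333 and was not used.

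Named were all probe sets of the 9 genes and, of the 7 wider lists, the 8 genes with the largest statistic and all tested genes of the hypusination and secretion lists. Myc, and the markers, were named in addition after their values were seen. Members and lists were chosen with earlier results of these data known. Promoter windows came from RefSeq. Alternatives were constants of 2 and 20, no filter or the 60th percentile, 4 other scalings, eBayes without trend or robust, a replicate block, leaving out each array and averaging the probe sets of each gene. Plots were drawn with matplotlib 3.10.9.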

Additional observations from a re-analysis of the deposited data

How the results depend on the processing

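The small differences of the 9 genes depended on single arrays and on the scaling. Where an array was left out, the lone array of its group was assumed to vary like the other group. The number of their probe sets past an adjusted p of 0.05 ranged from 0 to 4 over the fits that left out 1 array, the 4 coming without control 1 (Odc1, Amd1, Azin1 and the dimmer of Oaz2), and was 0 under each of the other alternatives. The number at an unadjusted p under 0.05 ranged from 0 to 7 when 1 array was left out and was 0 with eBayes without trend, where 12.1% of all tested probe sets had such a p. The median log2 change of the 9 genes ranged from −0.15 to 0.045 when 1 array was left out. It was −0.063 with the filter at the 60th percentile, −0.030 after quantile normalization, 0.015 after median centring, −0.025 after cyclic loess, 0.090 after scaling to the hybridization controls and 0.031 with probe sets averaged by gene. The number of wider pathway genes at an unadjusted p under 0.05 ranged from 2 to 12 when 1 array was left out.

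Signs turned as follows. Scaling to the hybridization controls gave 0.089 for Amd1, 0.0092 for Sms, 0.061 for Mat2a, 0.090 for Oaz2 and 0.030 for Smox. Median centring gave 0.0024 for Oaz2 and 0.015 for Smox. Quantile normalization gave −0.030 for Azin1 and 0.029 for Smox, and cyclic loess gave −0.025 for Azin1 and 0.028 for Smox. Averaging the probe sets of a gene gave −0.031 for Azin1, 0.18 for Oaz2 and 0.22 for Mat2a. Leaving out 1 array, Azin1 ranged from −0.31 (without control 2) to 0.33 (without control 1), with −0.028 without PhIP 2. Its second probe set ranged from −0.064 (without control 2) to 0.23 (without control 1), with −0.036 without PhIP 1, and Smox from −0.31 (without PhIP 2) to 0.071 (without PhIP 1). The cause was not tested. Odc1, Sat1, Oaz1, Srm, Aldh18a1, Arg2, Agmat, Dhps, Dohh, Eif5a, Eif5a2, Sbp and Tgm4 kept their sign under each alternative that tested them. For Eif5a2 this holds for its brighter probe set only. The number of all tested probe sets past the adjusted threshold was 5 with all arrays. It was 2334 without control 1, 462 without control 2 and 0 when either PhIP array was left out.

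The labels do not say that arrays of the same number share a litter or day, and the deviations of same-numbered arrays correlated at −0.056. With the replicate block, 4 of 12 probe sets of these genes had an unadjusted p under 0.05 (Odc1, Sat1, Srm and the dimmer of Oaz2), 0 passed the adjusted threshold, and 35 of all tested probe sets did.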
